A study of Mus musculus with 16 samples.

Results

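The 8 mouse lines of the experiment were split by line number, lines 3, 4, 5 and 6 against lines 1, 2, 7 and 8, and the vomeronasal organ (VNO) transcriptome of 8 libraries was set against that of the other 8, which is all 16 libraries of the series. The split cuts across selection. Lines 3 and 6 (High Runner, HR) and lines 4 and 5 (Control) formed the first set, and lines 7 and 8 (HR) and lines 1 and 2 (Control) formed the second. HR lines had been bred for high voluntary wheel running and Control lines had not, all 8 derived from outbred Hsd:ICR mice, and the animals came from generation 88 at 12 weeks of age. Each library was a pool of the VNOs of 3 mice of the same line and sex, so a line contributed 1 male and 1 female library and the animals within a pool cannot be told apart.

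The split was drawn from these data: the line sets were chosen by the levels of the gland genes *Dmbt1*, *Ltf* and *Obp2a* and of the neuronal gene *Omp*. Differences in gene levels between the sets are therefore given as a description, with the spread over lines and no test. Tests were run on sequencing depth and, across all genes, on selection and sex within the sets, which the split did not use, and no test is given for the 4 genes that drew it.

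The VNO is a paired tube at the base of the nasal septum. Vomeronasal sensory neurons (VSNs) line its medial wall and detect pheromones with receptors of the Vmn1r, Vmn2r and Fpr families, and *Omp* (olfactory marker protein) marks the mature cells. Glands open into the lumen, and their fluid carries lipocalins, which bind small odorants and pheromones, and proteins that act against microbes. Blood vessels and smooth muscle around the lumen drive the pumping that draws stimuli in. A dissected VNO holds all of these tissues. In bulk RNA fewer cells of a type cannot be told apart from less RNA per cell, or from more RNA of the other tissues in the pool.

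Counts on genes ranged from 15998552 to 70875276 per library. Log2 depth was 0.43 lower in lines 3-6 on average over 4 lines against 4 (-0.43, exact two-sided permutation test, *p* = 0.2571, where the smallest possible *p* is 0.02857). Levels are CPM, a gene's counts scaled by the TMM-normalized library size, and a line value is the mean of its male and its female library. *Xist* stayed at or below 3.87 CPM in males and at or above 878 CPM in females, as labelled. *Trpc2*, a defining VSN gene, was listed at 0 in all 16 libraries, so the neurons were followed by 16 other genes.

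*Dmbt1*, a scavenger-receptor glycoprotein of mucosal secretions, stood at 28739, 12953, 28607 and 23026 CPM in the male libraries of lines 3, 4, 5 and 6. It stood at 1533, 4638, 2116 and 2017 CPM in the males of lines 1, 2, 7 and 8. In females it was 15021, 3928, 30228 and 20325 CPM in lines 3 to 6 and 10306, 3309, 1919 and 321 CPM in lines 1, 2, 7 and 8. The male libraries of the sets did not overlap. The female libraries did, because line 1 lay above line 4. Over lines the level was 20353 ± 8721 CPM (SD, n = 4) in lines 3-6 and 3270 ± 2121 in lines 1, 2, 7 and 8, a log2 difference of 2.97 ± 0.70 (SE over lines).

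*Ltf*, which encodes the iron-binding antimicrobial lactoferrin, had 5550, 4351, 4140 and 5703 CPM in males of lines 3 to 6 and 535, 1762, 923 and 1410 CPM in males of lines 1, 2, 7 and 8. The female values were 3741, 1391, 6183 and 4262 CPM against 2994, 1399, 924 and 568 CPM. Again the male libraries were apart, and the female library of line 4 lay below those of lines 1 and 2. The log2 difference of line values was 1.85 ± 0.31.

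*Obp2a*, an odorant-binding lipocalin, had 64040, 36244, 75571 and 38698 CPM in males of lines 3 to 6 and 3852, 8136, 5186 and 4267 CPM in males of lines 1, 2, 7 and 8. In females the values were 19586, 10207, 30666 and 48777 CPM against 16788, 5847, 4431 and 508 CPM. The lowest male of lines 3-6 stood at 36244 CPM and the highest of the other males at 8136 CPM. The log2 difference of line values was 2.96 ± 0.63.

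*Omp* ran the other way. Males had 1613, 1859, 2016 and 1870 CPM in lines 3 to 6 and 2286, 2600, 2320 and 2583 CPM in lines 1, 2, 7 and 8. Females had 1597, 1950, 1265 and 1900 CPM against 1854, 2122, 1999 and 2519 CPM. Male libraries did not overlap, and female libraries overlapped through lines 4, 6 and 1. The log2 difference was -0.38 ± 0.10.

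**Figure D1:**
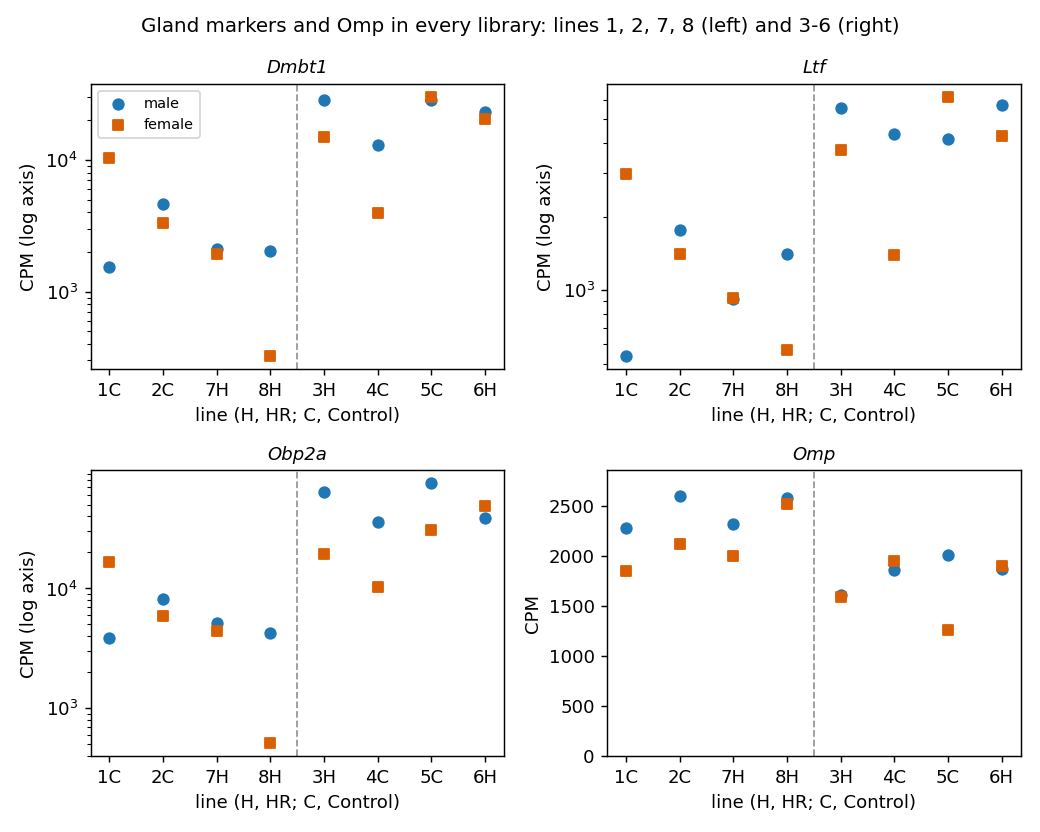
CPM of *Dmbt1*, *Ltf*, *Obp2a* (log axes) and *Omp* (linear axis) in each of the 16 libraries, with lines 1, 2, 7 and 8 left of the dashed line and lines 3-6 right of it; circles are male and squares female pools, H marks HR and C Control lines. The circles separate at the dashed line for every gene, while the female library of line 1 lies above that of line 4 for the 3 gland genes.

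By these genes, on which the split was drawn, the male pools fell into a gland-rich and a gland-poor set, and the 8 female pools did not. Without those of lines 1 and 4 the female pools separated for all 4 genes. With line 4 alone set aside, the females of lines 3-6 already lay above the others for the 3 gland genes. The lowest and highest were 15021 against 10306 CPM for *Dmbt1*, 3741 against 2994 for *Ltf* and 19586 against 16788 for *Obp2a*. *Omp* still overlapped, through lines 6 and 1. Without the female libraries of lines 1 and 4 the log2 differences were 3.54 ± 0.53 for *Dmbt1*, 2.38 ± 0.32 for *Ltf*, 3.47 ± 0.49 for *Obp2a* and -0.41 ± 0.08 for *Omp*. Within a library the ratio of *Obp2a* to *Omp*, which needs no scaling between libraries, ranged from 19.5 to 39.7 in males of lines 3-6 and from 1.65 to 3.13 in males of lines 1, 2, 7 and 8. In females it ranged from 5.24 to 25.7 and from 0.202 to 9.05, so these overlapped.

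A gene was called, as a description, when the line sets differed at least 2-fold and the 4 libraries of a set did not overlap the other 4 in males and in females, in the same direction. Of 16757 genes, 125 were higher in lines 3-6 (0.746%) and 12 were lower (0.0716%). The counts depend on single lines and on scaling: they were 440 and 30 without line 1, 356 and 36 without line 6, 236 and 28 without line 4, 80 and 23 with total counts, and 36 and 1 with log2(RPKM + 1). Without the size limit, 480 genes did not overlap upwards and 293 downwards, so the 2-fold limit kept mostly the higher ones. *Nkd2* (log2 difference 1.005), *Cartpt* (-1.01) and *Sp140* (1.01) were just inside the limit, and *Itgb7* (0.998), *Alpl* (0.997) and *Emilin1* (0.997) were just outside. The called genes had modest levels: 35 of the 125 higher and 1 of the 12 lower reached a mean of 10 CPM. In the male libraries alone 1087 genes were higher (6.49%) and 18 lower (0.107%). In the female libraries alone 132 were higher (0.788%) and 42 lower (0.251%).

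Most male-called genes had the same direction in females, with line 1 among lines 3-6 in many of them. Of the 1087, 1061 had a female difference above 0. In 563 of them (51.8%) the female library of line 1 was above that of line 4, in 559 (51.4%) above that of line 6, and in 306 and 174 above those of lines 3 and 5. In 799 (73.5%) it was above those of lines 2, 7 and 8. The female libraries of lines 2, 7 and 8 exceeded that of line 4 in 197, 128 and 67 of these genes. Without the female libraries of lines 1 and 4, 570 genes were called higher (3.40%) and 18 lower (0.107%) by the same rule.

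**Figure D2:**
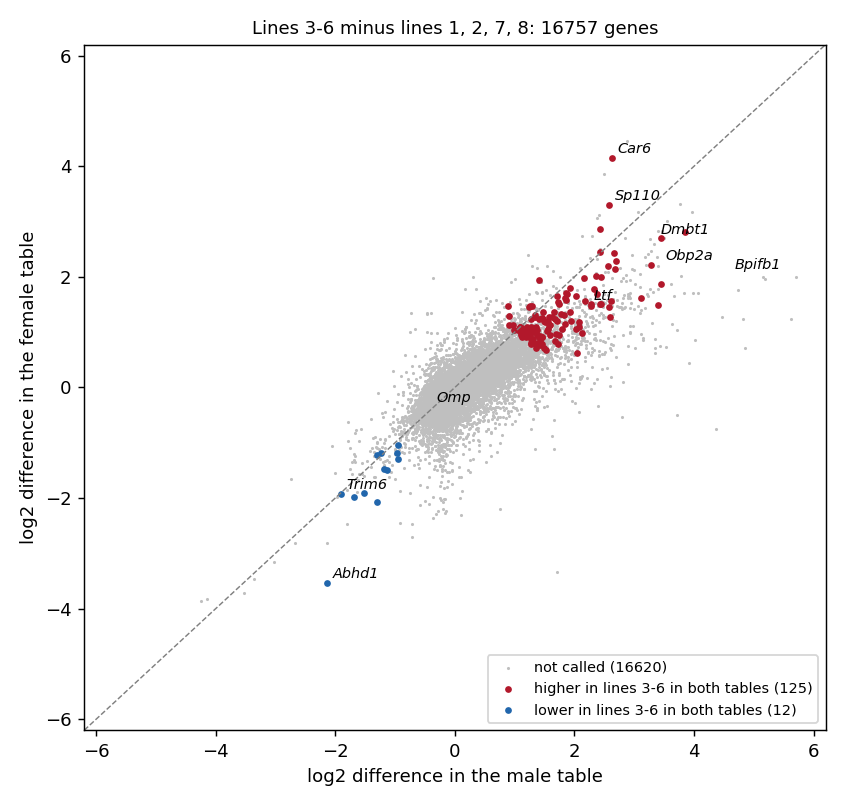
Log2 difference of lines 3-6 minus lines 1, 2, 7 and 8 in the female table against that in the male table for 16757 genes, with the 125 genes called higher in red, the 12 called lower in blue and the line of equality dashed. Most red points lie below the dashed line, with larger differences in males than in females, and *Car6* and *Sp110* lie above it.

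The gene with the highest level among those called was *BC048546*, chosen here after its values were seen. Its levels were 9853, 14292, 26590 and 21781 CPM in males of lines 3 to 6 and 351, 2133, 622 and 4316 CPM in males of lines 1, 2, 7 and 8. In females they were 8650, 5319, 29543 and 21622 CPM against 4480, 1796, 778 and 1912 CPM. The sets did not overlap in either sex, and the log2 difference was 3.32 ± 0.61.

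The 4 most abundant members of the lipocalin list lie on chromosome 2, *Obp2a* at chr2:25700043-25703326, *Obp2b* at chr2:25737009-25740097, *Lcn3* at chr2:25765569-25768099 and *Lcn4* at chr2:26667674-26671282 (GRCm38). The 250 bases before the RefSeq start sites of these genes and of *Ltf* are shown because the genes differ together between the sets. The gene positions are GENCODE's, whose starts lie 31 bases upstream of RefSeq's for *Obp2a*, 21 upstream for *Ltf*, 36 downstream for *Lcn3* and 2 downstream for *Obp2b*, and are the same for *Lcn4*. The sequences are RefSeq's (GRCm38.p6), 5′ to 3′ on the gene's strand, and capitals mark motifs searched on either strand: the TATA box TATAAA, the core letters of the ETS family (to which *Elf5* and *Spdef* belong) GGAAG, and the letters of a SOX motif, ACAAAG.
Obp2a: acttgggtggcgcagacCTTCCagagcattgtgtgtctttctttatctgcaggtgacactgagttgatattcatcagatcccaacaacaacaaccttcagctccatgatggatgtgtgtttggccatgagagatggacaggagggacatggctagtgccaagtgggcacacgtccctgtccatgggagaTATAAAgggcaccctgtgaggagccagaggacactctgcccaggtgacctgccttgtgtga
Obp2b: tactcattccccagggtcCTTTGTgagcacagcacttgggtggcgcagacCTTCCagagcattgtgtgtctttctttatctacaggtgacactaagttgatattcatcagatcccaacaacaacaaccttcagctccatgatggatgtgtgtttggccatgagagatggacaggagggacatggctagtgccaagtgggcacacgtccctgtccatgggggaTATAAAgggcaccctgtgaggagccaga
Lcn3: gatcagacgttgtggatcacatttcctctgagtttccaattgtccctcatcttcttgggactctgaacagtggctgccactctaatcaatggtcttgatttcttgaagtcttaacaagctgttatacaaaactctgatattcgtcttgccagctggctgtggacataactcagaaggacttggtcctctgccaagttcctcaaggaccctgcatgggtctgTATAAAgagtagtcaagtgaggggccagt
Lcn4: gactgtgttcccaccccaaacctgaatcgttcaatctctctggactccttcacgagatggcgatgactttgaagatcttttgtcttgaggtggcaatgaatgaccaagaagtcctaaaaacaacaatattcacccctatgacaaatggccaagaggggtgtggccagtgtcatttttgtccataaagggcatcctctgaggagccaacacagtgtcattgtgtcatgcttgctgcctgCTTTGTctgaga
Ltf: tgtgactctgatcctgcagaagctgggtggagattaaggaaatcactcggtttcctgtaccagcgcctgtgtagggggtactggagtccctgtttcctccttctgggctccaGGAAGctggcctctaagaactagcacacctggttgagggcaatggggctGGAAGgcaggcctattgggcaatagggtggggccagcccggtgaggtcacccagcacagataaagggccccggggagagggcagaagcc

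TATAAA was found in 3 of these 5 windows (*Obp2a*, *Obp2b* and *Lcn3*) and in 12.4% of 32851 mouse promoter windows of the same length. Counted from the RefSeq starts it begins 61 bases before *Obp2a*, 28 before *Obp2b* and 29 before *Lcn3*, and counted from the GENCODE starts 30, 30 and 65 bases before them. GGAAG was found in 3 of 5 and in 64.1% of all windows, ACAAAG in 2 of 5 and in 16.5%, and the forkhead motif TGTTTAC in 0 of 5 and in 3.17%. With a shift of 33 bases the *Obp2a* and *Obp2b* windows matched at 214 of 217 positions (98.6%). A match is a description of letters only. The windows lie at chr2:25699824-25700073, chr2:25736757-25737006, chr2:25765283-25765532, chr2:26671283-26671532 (minus strand) and chr9:111019042-111019291.

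*Obp2b* had 56159, 28827, 59740 and 31786 CPM in males of lines 3 to 6 and 2756, 6831, 3218 and 3559 CPM in males of lines 1, 2, 7 and 8. In females the values were 21603, 9309, 27783 and 42215 CPM against 13082, 5160, 3341 and 404 CPM. The ratio of *Obp2b* to *Obp2a* within a library stayed between 0.621 and 1.103 over all 16 libraries. Of the 75-nucleotide words of *Obp2a* transcripts, 91.6% occur in no other gene, and 91.5% of those of *Obp2b*, so reads from the rest were dropped by the alignment.

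*Lcn3* and *Lcn4*, lipocalins of the VNO and posterior septal glands, had log2 differences of 2.81 ± 0.62 and 3.10 ± 0.68. *Lcn3* reached 24138, 13706, 27606 and 14937 CPM in males of lines 3 to 6, and 1398, 3796, 1793 and 1960 CPM in males of lines 1, 2, 7 and 8. Its female values were 6347, 3784, 10784 and 20092 CPM against 6784, 2719, 1680 and 207 CPM, and here line 1 was above both line 3 and line 4. Of the 16 lipocalins listed, 13 are in the tables and 9 passed the filter on low counts. Their median log2 difference was 2.81, beside -0.01 over all genes, and 8 of 9 were above 0. No lipocalin was called in both sexes, 6 were called in males (*Obp2a*, *Obp2b*, *Lcn3* and *Lcn4* among them), and 4 were called without the female libraries of lines 1 and 4. Of all genes, 0.746%, 6.49% and 3.40% were called higher in these ways.

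The 9 lipocalins took 8.64% to 15.6% of all counts in males of lines 3-6 and 0.941% to 2.06% in males of lines 1, 2, 7 and 8. In females the shares were 2.76% to 12.1% and 0.152% to 4.41%. Male shares did not overlap and female shares did.

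Of 17 host defence genes that passed the filter, 9 were called higher in males and 0 in both sexes (6.49% and 0.746% of all genes). The median difference was 2.02 in males and 0.63 in females. *Wfdc18*, a whey acidic protein family member, had 3803 ± 2331 CPM in lines 3-6 and 913 ± 461 CPM in lines 1, 2, 7 and 8 (log2 difference 2.09 ± 0.68). *Pigr*, which carries IgA across epithelia into secretions, differed by 0.75 ± 0.26 and was not called.

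The BPI fold proteins are lipid-binding airway defence proteins, and 8 of 13 passed the filter. All 8 differences were above 0, 4 were called in males and 0 in both sexes (6.49% and 0.746% of all genes). *Bpifb1* had 1133, 103, 111 and 272 CPM in males of lines 3 to 6 and 2.24, 3.77, 55.8 and 0.958 CPM in males of lines 1, 2, 7 and 8. In females it was 166, 5.21, 277 and 7.54 CPM against 14.7, 4.74, 22.4 and 4.36 CPM. Lines 3 and 5 were high in females and lines 4 and 6 lay among the other set. *Bpifa1* had log2 differences of 3.71 in males and 1.04 in females. *Bpifb9b*, of whose words only 38.4% are unique because *Bpifb9a* shares the rest, differed by 0.59 ± 1.23.

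Among 16 genes of mucins and gland secretion, 9 were called in males and 2 in both sexes, *Car6* and *Spdef*. Of all genes, 6.49% were called higher in males and 0.746% in both sexes. *Car6*, the secreted carbonic anhydrase of saliva, had 3.38, 1.66, 0.827 and 2.88 CPM in males of lines 3 to 6 and at most 0.454 CPM in the other males. Its female values were 4.18, 24.2, 4.01 and 42.9 CPM against 0.389, 0.979, 2.36 and 0.108 CPM. The female libraries of lines 4 and 6 were the highest, and the sets did not overlap in either sex. *Aqp5*, the water channel of secretory cells, had 67.3 ± 13.9 CPM in lines 3-6 and 18.4 ± 11.1 CPM in the others (2.08 ± 0.36). *Aqp4*, at 1075 ± 87 against 1214 ± 79 CPM, differed by -0.18 ± 0.07. The 3 most abundant members of this list were all slightly below 0, with *Slc12a2* at -0.12 and *Car2* at -0.04, and the summed level of the list overlapped in males (2119 to 2784 against 2450 to 2851 CPM) and in females.

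Regulators of secretory cells followed. In the list of 16 secretory pathway and gland transcription factors 4 were called in both sexes, *Spdef*, *Elf5*, *Creb3l1* and *Sox10*, and 10 in males. The shares called higher among all genes were 0.746% and 6.49%. *Spdef*, an ETS factor of mucus-producing cells, had 6.85, 2.97, 6.77 and 4.65 CPM in males of lines 3 to 6 and 0.369, 0.616, 0.56 and 0.414 CPM in males of lines 1, 2, 7 and 8. In females it was 2.9, 3.06, 4.14 and 4.11 CPM against 2.14, 0.67, 0.842 and 0.188 CPM. Even the female library of line 1 lay below all 4 of lines 3-6 here.

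*Elf5*, an ETS factor of gland epithelium, had 27.6, 16.6, 36.5 and 24.6 CPM in males of lines 3 to 6 and 3.16, 4.93, 4.92 and 3.16 CPM in the other males. Females had 12.4, 11.3, 19.6 and 27 CPM against 9.13, 4.38, 3.75 and 0.781 CPM. The log2 differences were 2.74 ± 0.37 for *Spdef* and 2.48 ± 0.45 for *Elf5*. *Creb3l1*, a regulator of secretory capacity, differed by 1.855 ± 0.37, and *Sox10*, expressed in glands and in glia, by 1.21 ± 0.19. *Xbp1*, the general factor of the unfolded protein response, had 235 ± 35 against 179 ± 13 CPM (0.39 ± 0.12). The 18 chaperones of the heat shock and endoplasmic reticulum list had a median of -0.02.

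The remaining called genes with the largest differences were *Nipal1* (3.07 ± 0.42), *Slc5a8* (2.65 ± 0.46), *Calml3* (2.64 ± 0.43), *Gdf5* (2.41 ± 0.38), *Klk1b11* (2.38 ± 0.37), *Smpdl3b* (2.36 ± 0.32), *Syt6* (2.22 ± 0.41) and *Cldn2* (2.18 ± 0.41). *Slc5a8* is a sodium-coupled monocarboxylate transporter, *Klk1b11* a kallikrein, *Gdf5* a growth factor of the BMP family and *Cldn2* a claudin of leaky epithelia. *Klk1b11* and *Syt6* stood below 1 CPM in both sets, and their differences depend on the prior count of 2. *Gdf5* stood at 0.353 CPM in lines 1, 2, 7 and 8, and 61.4% of its 75-nucleotide words occur in no other gene, so its level is uncertain.

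**Figure D3:**
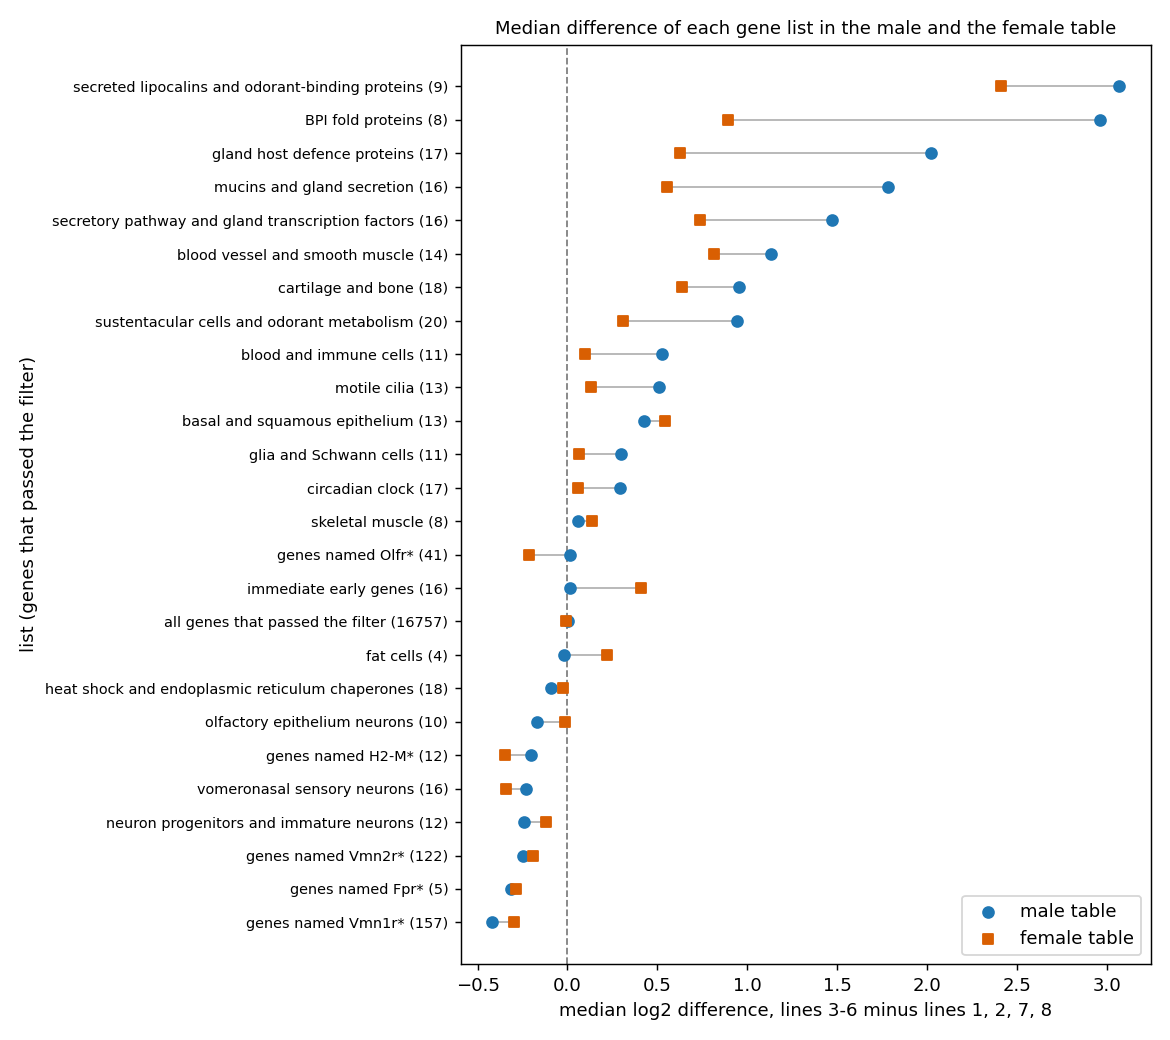
Median log2 difference of lines 3-6 minus lines 1, 2, 7 and 8 of each gene list in the male (circles) and female (squares) table, with the number of genes that passed the filter in brackets. Lipocalins, BPI fold proteins and host defence proteins lie furthest right in the male table, with medians from 2.02 to 3.07, and the Vmn1r, Vmn2r and Fpr families lie left of 0 in both tables.

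All 14 genes of the blood vessel and smooth muscle list were above 0, with a median of 0.94. Of them, 10 were called in males and 0 in both sexes (6.49% and 0.746% of all genes). *Myh11*, smooth muscle myosin, had 385, 426, 292 and 252 CPM in males of lines 3 to 6 and 17.4, 47, 21.5 and 58 CPM in the other males. In females it was 462, 58.3, 617 and 54 CPM against 238, 90.9, 41 and 7.24 CPM, so lines 4 and 6 fell among the other set. *Acta2*, smooth muscle actin, had 287 ± 118 against 99.1 ± 24.1 CPM (1.47 ± 0.44). The endothelial gene *Vwf*, named after its values were seen, differed by 1.42 ± 0.36.

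Collagen chains, counted after the called genes were seen, were above 0 in 42 of 42 genes that passed the filter, with a median of 0.96 (1.03 in males and 0.84 in females). Of these, 9 were called in both sexes, beside 0.746% of all genes. *Col3a1*, a fibrillar collagen of soft tissue, had 713, 628, 339 and 299 CPM in males of lines 3 to 6 and 182, 208, 168 and 148 CPM in the other males. Its female values were 401, 375, 407 and 278 CPM against 265, 198, 203 and 191 CPM. *Col7a1*, of the anchoring fibrils beneath epithelia, differed by 2.07 ± 0.21, and *Col5a2* by 1.01 ± 0.19. *Col1a1* and *Col1a2*, the chains of collagen I, differed by 1.21 ± 0.34 and 1.13 ± 0.30, and were called in females and by line values but overlapped in males.

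Some genes listed for the main olfactory epithelium were higher in the male libraries of lines 3-6. Others of the same lists, mostly abundant ones, were not. In the list of sustentacular cells and odorant metabolism, 16 of 20 were above 0. Of the 20, 10 were called in males and 0 in both sexes (6.49% and 0.746% of all genes). Of its abundant members, *Cbr2* differed by 0.18, *Cyp2a5* by -0.17, *Ugt2a2* by -0.37 and *Gstm1* by -0.27. *Gpx6*, an enzyme of olfactory mucosa, and *Cnga2* were named after their values were seen. *Gpx6* had 20.4, 4.42, 30.7 and 5.11 CPM in males of lines 3 to 6 and at most 0.958 CPM in the other males. In females it had 0.257, 0.379, 1.72 and 2.83 CPM against 0.958, 0.155, 0.0632 and 0.0539 CPM. *Cnga2*, the olfactory cyclic nucleotide-gated channel, had 3.66, 0.368, 5.2 and 1.36 CPM in males of lines 3 to 6 and 0.128, 0.0747, 0.122 and 0.311 CPM in the other males. Its female values were near 0 and overlapped, at 0.110, 0.0506, 0.127 and 0.626 CPM against 0.0694, 0.0515, 0.0632 and 0 CPM. Among males, line 4 lay just above line 8. The males of lines 3 and 5 were the highest for both genes. The summed level of the 20 genes of the first list overlapped, at 2667 to 3169 against 2065 to 2909 CPM in males and at 2164 to 3422 against 1841 to 2958 CPM in females. *Umodl1*, *Nsg1* and *Rtp2*, the most abundant of the olfactory neuron list, had differences of -0.09, -0.54 and -0.60. *Nsg1* averaged 437 CPM and *Rtp2* 245 CPM, against 0.770 CPM for *Cnga2*, so summed levels follow the abundant members. Which cells the RNA of the abundant members came from was not tested. *Stoml3* and *Cyp1a2*, low members named after their values were seen, were called in males, with differences of 3.35 and 4.47 there. Of the 10 olfactory neuron genes, 3 were called in males and 0 in both sexes (6.49% and 0.746% of all genes). Their median was -0.10 (-0.17 in males), with 6 of 10 below 0. Their summed levels were 1922 to 2249 against 2152 to 2736 CPM in males and 1618 to 2135 against 1894 to 2488 CPM in females. None of the genes named here was at 0 in every library. The part of this tissue in the differences of the line sets was not tested.

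In the list of cartilage and bone, 17 of 18 genes were above 0, with a median of 0.81 (0.95 in males and 0.64 in females). Of these genes, 3 were called in males, 2 in females and 0 in both sexes (6.49%, 0.788% and 0.746% of all genes). In the other lists the medians were 0.71 for basal and squamous epithelium, 0.29 for motile cilia, 0.23 for blood and immune cells, 0.22 for immediate early genes, 0.17 for the circadian clock and for fat cells, 0.15 for glia and 0.08 for skeletal muscle. Only *Sox10* of these lists was called in both sexes. Summed levels of basal and squamous epithelium ran against the median in males, at 1412 to 1528 CPM in lines 3-6 against 1579 to 1810 CPM. Those of blood and immune cells did so too, at 663 to 863 against 878 to 1012 CPM. Both sums overlapped in females. Their most abundant members, *Epcam* and *Cd74*, each differed by -0.32.

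The neuronal side differed less in size but separated the line sets in both sexes when summed, with *Omp*, on which the split was drawn, as the most abundant of the genes summed. The 16 VSN genes summed to 5955 to 6787 CPM in males of lines 3-6 and to 7945 to 8499 CPM in the other males. In females the sums were 5005 to 6719 CPM and 6878 to 8023 CPM. They did not overlap in either sex. Without *Omp* the other 15 genes summed to 4342 to 4845 against 5582 to 5899 CPM in males and to 3740 to 4769 against 5024 to 5504 CPM in females, a sum made after the data were seen, and again did not overlap. With total counts in place of TMM the female sums overlapped, at 4913 to 7239 CPM and 6994 to 8386 CPM, and also without *Omp*, at 3671 to 5138 CPM and 5109 to 5753 CPM. Of the 16 genes 13 were below 0, with a median of -0.30, and 0 were called (0.0716% of all genes were called lower). Without the female libraries of lines 1 and 4 the median was -0.34. Levels are relative to the rest of a library, so lower neuronal levels cannot be told apart here from a larger share of gland RNA.

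*Gnai2*, the G protein subunit of apical VSNs that express Vmn1r receptors, had 946 ± 54 against 1280 ± 59 CPM (-0.43 ± 0.06). *Rtp1*, a chaperone of receptor trafficking, had 672 ± 24 against 887 ± 70 CPM (-0.39 ± 0.07), and *Calr4* differed by -0.29 ± 0.13. The 12 genes of neuron progenitors and immature neurons had a median of -0.15, and their female sums overlapped.

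Of 211 genes named Vmn1r, 157 passed the filter and 151 of these were below 0, with a median of -0.35, while 8732 of all 16757 genes were below 0. Their sums were 2174 to 2371 CPM in males of lines 3-6 against 2747 to 3034 CPM, and 2032 to 2430 CPM in females against 2585 to 2749 CPM. These did not overlap in either sex under TMM, DESeq2 size factors, total counts, upper quartile scaling or RPKM. Of 122 Vmn2r genes that passed, 103 were below 0, with a median of -0.22. Their sums overlapped in both sexes, at 4147 to 6144 against 5834 to 6112 CPM in males and 4924 to 5899 against 5619 to 6554 CPM in females, and did not overlap with total counts. The ratio of the Vmn1r to the *Omp* level overlapped between the sets in both sexes, from 1.17 to 1.36 against 1.06 to 1.33 in males.

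**Figure D4:**
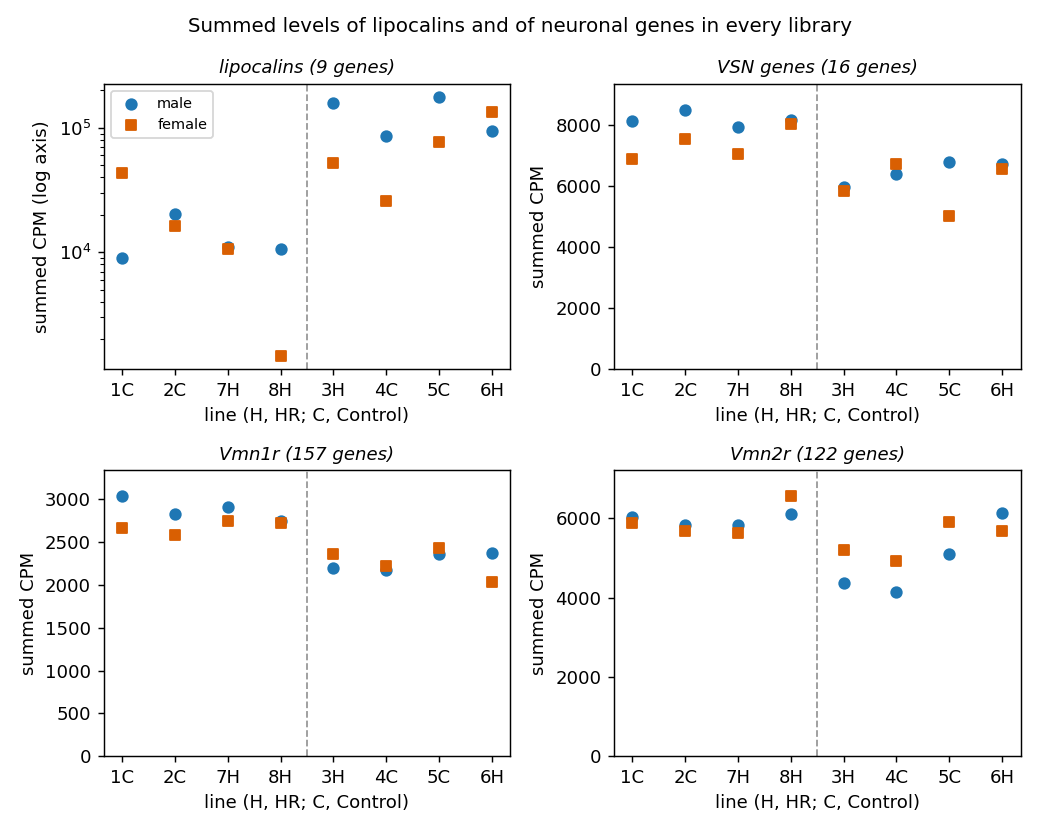
Summed CPM of 9 lipocalins (log axis), 16 VSN genes, 157 Vmn1r and 122 Vmn2r genes in every library, with lines 1, 2, 7 and 8 left of the dashed line and lines 3-6 right of it. VSN and Vmn1r sums of lines 3-6 lie below those of the other lines in males and in females, while lipocalin sums of females and Vmn2r sums overlap.

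The 12 genes called lower included the neuropeptide gene *Cartpt*. It had 209, 279, 328 and 241 CPM in males of lines 3 to 6 and 346, 700, 556 and 515 CPM in the other males, and 155, 299, 181 and 286 CPM in females against 313, 605, 484 and 471 CPM. Its log2 difference was -1.01 ± 0.25. The other 11 had low levels. *Fhit*, a tumour suppressor, differed by -1.09 ± 0.26, the transcription factors *Onecut2* and *Foxd2* by -1.22 ± 0.28 and -1.34 ± 0.32, and *Vmn1r25*, the 1 receptor called, by -1.27 ± 0.26.

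*Abhd1*, an alpha/beta hydrolase domain gene, had the largest negative difference among called genes, -2.87 ± 0.31. Its male values were 0.0472, 0.158, 0.512 and 0.217 CPM in lines 3 to 6 and 1.19, 1.14, 1.22 and 0.544 CPM in the other lines. In females of lines 5 and 6 it was at 0 counts, so the fold depends on the prior count. *Abhd1* overlaps *Preb*, and 41.4% of its 75-nucleotide words are unique, so its level is uncertain.

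Of the 137 called genes 136 had a position, and 32 of them lay within 1 Mb of another called gene, at 13 places. The windows around these places held from 6 to 88 genes that passed the filter. The number to be had from any 136 genes was not computed, so the count is not read as clustering. In the window around chr7:104153013-104369884 (GRCm38), 12 genes passed the filter and the median size of their log2 differences was 1.59. Tripartite motif (Trim) genes, many of them antiviral factors, fill this region, and they differed in both directions. *Trim34a* (chr7:104244457-104262234) had 2.01, 1.55, 1.69 and 1.55 CPM in males of lines 3 to 6 and 2.85, 4.89, 4.75 and 5.05 CPM in the other males. Its female values were 1.25, 1.42, 1.15 and 2.5 CPM against 7.42, 6.59, 6.76 and 5.28 CPM. The sets did not overlap, with a difference of -1.69 ± 0.13.

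*Trim6* (chr7:104218793-104235152, -1.92 ± 0.34) and *Trim30b* (chr7:104355382-104369884, -1.72 ± 0.32) were also called lower. *Trim12c* (chr7:104338754-104353362), between *Trim34a* and *Trim30b*, was higher by 1.73 ± 0.47. It had 45.9, 44, 36.5 and 35.7 CPM in males of lines 3 to 6 and 40.7, 6.87, 6.55 and 15.9 CPM in the other males, and the female values were 43.5, 34.1, 45.2 and 39.6 CPM against 14.6, 7.83, 6.7 and 20.7 CPM. The male library of line 1 alone reached the level of lines 3-6. *Trim30a* differed by 0.19 ± 0.20 and *Trim30d* by -1.49 ± 0.36.

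At chr1:84992690-85645037, 3 genes were called, and the median size of the differences of the 23 genes in the window was 0.27. *Sp110* (chr1:85576899-85598817), a nuclear body gene of the interferon response, had 4.04, 4.13, 4.69 and 3.66 CPM in males of lines 3 to 6 and 0.0709, 0.933, 1.68 and 1.19 CPM in the other males. Females had 3.89, 3.29, 3.76 and 4.59 CPM against 0.0416, 2.21, 2.02 and 0 CPM. Lines 3-6 were alike and lines 1, 2, 7 and 8 were spread, with both libraries of line 1 and the female library of line 8 near 0. The log2 difference was 2.95 ± 1.01, and it depends on the prior count. Its neighbour *Sp140* (chr1:85600378-85645037) differed by 1.01 ± 0.19, and *Sp100*, not called, by 0.16 ± 0.22. The third called gene was *C130026I21Rik*, with 1.27 ± 0.61 against 0.190 ± 0.12 CPM (2.54 ± 0.42), the gene that shares the most words with *Sp140*. Unique words made up 51.4% of *Trim34a*, 82.7% of *Trim12c*, 69.6% of *Sp110* and 53.7% of *Sp140* transcripts. The alignment accepted no mismatch, so a line with other bases than the reference at these genes would lose reads, and the part of this in the differences was not tested.

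**Figure D5:**
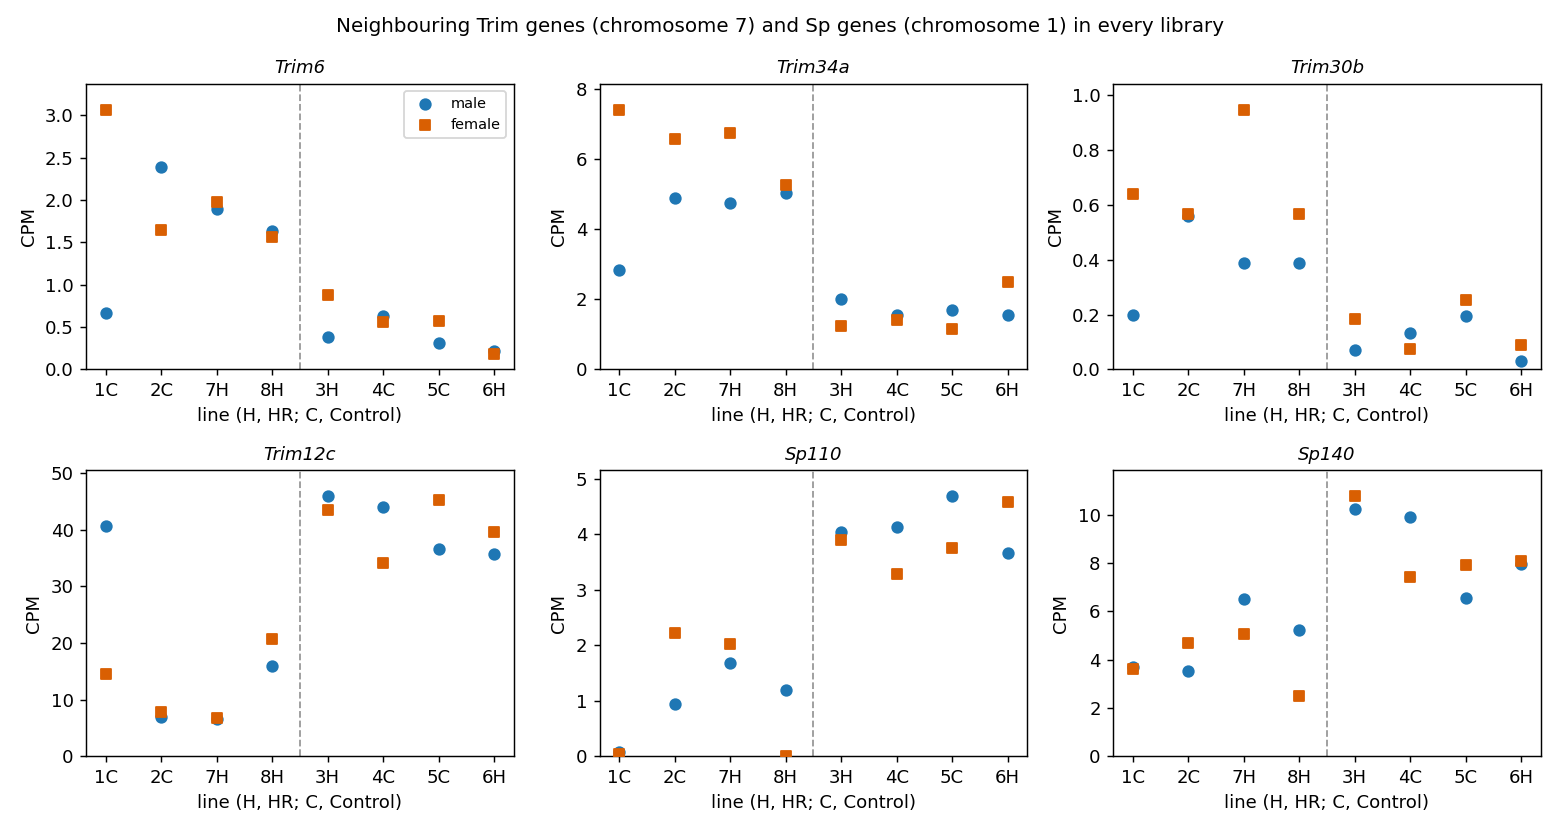
CPM (linear axes) in every library of 4 Trim genes of chromosome 7 and of *Sp110* and *Sp140* of chromosome 1, with lines 1, 2, 7 and 8 left of the dashed line and lines 3-6 right of it. *Trim6*, *Trim34a* and *Trim30b* are lower in lines 3-6, *Sp110* and *Sp140* are higher, and *Trim12c* in the male library of line 1 (40.7 CPM) is as high as in lines 3-6.

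HR and Control lines are balanced over the sets, 2 and 2, so the contrast of selection is independent of the split. With the set as a covariate, edgeR's quasi-likelihood test on the 8 line sums called 0 of 17104 genes (0%) at an adjusted *p* under 0.05, with 424 genes at an unadjusted *p* under 0.05, and 207 when the set was left out of the model. DESeq2 called 21. The smallest *p* belonged to *5031434O11Rik* (log2 difference -1.41 ± 0.15, adjusted *p* = 0.3506, edgeR) and *Cplx1* (1.67 ± 0.23, adjusted *p* = 0.8394, edgeR).

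The interaction asks whether HR and Control lines differ otherwise in lines 3-6 than in lines 1, 2, 7 and 8. It passed the threshold for 1 of 17104 genes (0.00585%), the receptor gene *Vmn2r8* (chr5:108791843-108808850), with 789 genes at an unadjusted *p* under 0.05 and 44 calls by DESeq2. *Vmn2r8* had 1.33 and 1.06 CPM in the male and 1.11 and 1.24 CPM in the female libraries of Control lines 1 and 2. In HR lines 7 and 8 it had 141 and 107 CPM in males and 109 and 106 CPM in females. In lines 3-6 it had 80.3 and 131 CPM in males of HR lines 3 and 6 and 74.7 and 72.6 CPM in males of Control lines 4 and 5. The females of lines 3, 6, 4 and 5 had 79.4, 133, 82.9 and 36.3 CPM. Lines 1 and 2 were thus low in both sexes and the other 6 lines were not. The interaction was -5.98 ± 0.39 on the log2 scale (adjusted *p* = 0.02881, edgeR quasi-likelihood test). It was past the threshold without line 3 or line 6, and with each of lines 1, 2, 4, 5, 7 and 8 left out in turn the adjusted *p* lay between 0.08629 and 0.432 (edgeR). Unique words made up 93.1% of *Vmn2r8* transcripts, and whether reads were lost to mismatches in lines 1 and 2 was not tested. *Tmed11*, whose gene overlaps *Vmn2r8*, was not past it (-5.34 ± 0.67, adjusted *p* = 0.7614, edgeR).

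The comparison of female minus male libraries between the sets, with line as a block, called 0 of 16757 genes (0%) with edgeR's quasi-likelihood test, with 2097 at an unadjusted *p* under 0.05, and DESeq2 called 108. Sex, table and possibly sequencing run coincide here and cannot be told apart. The smallest *p* were those of *Smc1a* (-0.44 ± 0.07) and *Per3* (-0.67 ± 0.10), both with an adjusted *p* of 0.3172 (edgeR). *Bpifa1*, picked here after its values were seen, separated the sets in males only and had an interaction of -2.64 ± 0.56 (adjusted *p* = 0.3172, edgeR). A gene picked for that pattern is bound to lean to a negative interaction, so nothing is drawn from this value.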

How the data were processed

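RNA of VNO pools was sequenced in 16 libraries as single-end reads of 75 nucleotides after depletion of ribosomal RNA. Alignment by the authors used STAR (2.6.1d in the submitters' processing notes) and the GRCm38 genome, accepted no mismatch and dropped reads with more than 1 location. The counts of reads per gene are as the authors deposited them, without normalization, in 1 table for each sex. The RPKM tables were also deposited by the authors, scaled by gene length and library size, and served only as an alternative. The counting tool, annotation and strand setting are not given in the sources used here, so overlapping genes are uncertain.

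Both tables were joined by gene name (24407 genes; 4 entries with names used more than once and 4 summary entries were left out). Genes were kept with filterByExpr at a minimum count of 10, which left 16757. The software was DESeq2 1.42.0, limma 3.58.1 and edgeR 4.0.16 under R 4.3.3, and Python 3.11.15, with TMM normalization and a prior count of 2. The line sets were compared by means of line values with no test. Selection and its interaction with the set were tested by edgeR's quasi-likelihood test on the sums of both libraries of a line, and the interaction of set and sex on 16 libraries with line as a block, with Benjamini-Hochberg adjustment over all genes at 0.05. The rule for calling genes and edgeR's tests on selection, its interaction with the set, and the interaction of set and sex were first run on simulated counts with large known changes. The permutation test of depth, DESeq2 and limma-voom were not. Same-line libraries of opposite sex moved together around the means of their sex and linetype (r across genes 0.312 to 0.701). The difference of the line sets was not removed and is part of these r, so they do not show that line alone pairs the libraries. Depth was 15998552 to 70875276 counts on genes.

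The line sets, gene lists and rules for naming genes were chosen with earlier results of these data known. Named are the 4 markers, the 12 largest positive and the 12 largest negative differences among called genes (predicted gene models left out), the most abundant and the called members of each list, and the genes with the smallest *p* of each test. Others are said to be chosen after their values were seen. Gene positions are those of GENCODE M21 on GRCm38. Unique words are the 75-nucleotide words of a gene's transcripts that occur in no other gene.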

Additional observations from a re-analysis of the deposited data

Results flagged for a closer look

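In 144 checks of 4 line values each, the highest or lowest line stood apart from the others in 7 by Dixon's ratio, which chance gives in about 1 of 20 groups. In lines 3-6 it was line 4 for *Ltf* (ratio 0.855), *Cnga2* (0.848) and *Pip* (0.923). In lines 1, 2, 7 and 8 it was line 7 for *Gnai2* (0.892) and *Lyz2* (0.866), line 2 for *Cyp1a2* (0.876) and line 1 for *Stoml3* (0.901).

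The difference of HR and Control lines differed between the line sets for *Vmn2r8*, by -5.98 on the log2 scale (edgeR, adjusted *p* = 0.02881), with 1.22 CPM in line 1 and 1.15 CPM in line 2.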

How the results depend on the processing

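Counts of genes higher and lower in lines 3-6 (125 and 12) became 80 and 23 with total counts, which shift the median of all genes to -0.12 and take the higher share of calls from 91.2% to 77.7%. They became 36 and 1 with log2(RPKM + 1), 1087 and 18 in males alone, 132 and 42 in females alone, 297 and 36 at 1.5-fold, and 7 genes were lower with log2(RPKM + 0.1). Chosen after the data were seen, non-overlapping line values gave 622 and 36, and leaving out the female libraries of lines 1 and 4 gave 570 and 18. Over the 8 fits that leave out a line, the counts ran from 124 to 440 higher and from 15 to 36 lower; without line 1 they were 440 and 30, without line 6 356 and 36, without line 4 236 and 28. With line as a replicate block (limma-voom) 131 were higher and 12 lower.

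The test of HR against Control called 21 genes with DESeq2, 12 on 16 libraries, 6 with limma-voom and line as a replicate block, and 0 to 3 with a line left out (3 without line 2, 1 without line 3). Its interaction with the set called 44, 26 and 8 under the same 3 settings and 0 to 2 with a line left out. The interaction of set and sex called 108 with DESeq2 and 0 without the replicate block (1352 at an unadjusted *p* under 0.05). The cause of these changes was not tested. The log2 depth difference kept its sign, and the difference in genes with at least 10 counts (-128, lowest -248.6 without line 2) became 64.9 without line 1 and 46.5 without line 5. Of 1512 recomputed differences of 72 named genes, 1422 moved by less than the spread over lines and 90 moved more. The 1.5-fold limit and non-overlapping line values leave a difference unchanged, so the values of those settings could not move. Of the called ones 0 changed sign. Their sets do not overlap in either sex, which fixes the sign when a sex or a line is left out, so nothing is drawn from this.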
